A study of Saccharomyces cerevisiae and Kluyveromyces marxianus with 18 samples.

Results

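Transcript levels in anaerobic Saccharomyces cerevisiae grown without any lipid supplement were compared with those in anaerobic cultures that received Tween 80 alone. Every gene of the count table was considered, and 5868 of 6171 genes passed a filter on low counts and were tested. The unsupplemented group (U) had 0 mg/L Tween 80 and 0 mg/L ergosterol, and the Tween only group (T) had 420 mg/L Tween 80 and 0 mg/L ergosterol. Another anaerobic group (TE), with 420 mg/L Tween 80 and 10 mg/L ergosterol, is set beside them. Everything else in the labels was shared: the wild-type laboratory strain CEN.PK113-7D, chemostat culture at a dilution rate of 0.1 per hour, 20 g/L glucose, a urea-based synthetic medium (SM), a pH of 6, an anaerobic gas regime and pluronic acid as antifoam. Each group had 2 libraries, which the submitters describe as biological replicates, among the 10 S. cerevisiae libraries of a series of 18. They are named U1, U2, T1, T2, TE1 and TE2 here.

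Yeast needs molecular oxygen to desaturate fatty acids and to make ergosterol, so that anaerobic growth normally depends on both being supplied. Tween 80 is a detergent that carries oleate, an unsaturated fatty acid, and ergosterol has to be imported from the medium. In the absence of oxygen S. cerevisiae also exchanges its wall mannoproteins, expresses the seripauperin (PAU) family and obtains its ATP from fermentation. The labelled state was checked with genes known to mark it. ANB1, the anaerobic form of translation factor eIF5A, had 836 CPM in U1 and 2320.1 in U2, against 437 and 412 CPM in T1 and T2, while the 2 aerobic libraries of the series had 0.583 and 0.136 CPM. The aerobic cultures also differed in having 7.5 g/L glucose, with 0 mg/L Tween 80 and 10 mg/L ergosterol. CYC1, the aerobic cytochrome c, had 6.35 and 28.4 CPM in U and 23.7 and 26.6 CPM in T, and 539.8 and 489 CPM in the aerobic libraries. CPM are read counts relative to the size of the library, scaled by TMM, a normalization that assumes most genes do not differ. They are not divided by gene length and are compared within a gene.

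The libraries differed in ways that touch every value below. U2 held 2849618 read pairs counted to genes, against 10960290 in U1, 10442512 in T1 and 13112466 in T2. In U2, 1 count equals 0.945 CPM, and 194 tested genes had fewer than 3 counts there, against 5 in U1 and 17 in each of T1 and T2. The 50 most abundant genes took 49.1% of the counts of U2 and 15.9 to 21.5% of those of the other 9 libraries. One gene without a reference name, SCEN_L02180 (chromosome 12, 435495 to 435845), alone took 19.8% of U2, against 0.0514% of U1, 0.0134% of T1 and 0.0218% of T2. The standard deviation of the log2 difference between replicates, across 5868 genes, was 1.75 in U and 0.16 in T. The U replicates are therefore given one by one. The titles of the U and TE libraries share the code ELOX24 and those of the T libraries the code ELOX38, so that whatever these codes stand for cannot be told apart from the group between U and T.

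The difference between U and T also followed gene length, in both U replicates. Genes of up to 500 bases had a median log2 difference of 0.73 in U1 and 0.73 in U2 from the mean of the T libraries, and genes over 2000 bases had -0.36 in U1 and -1.05 in U2. Spearman's rho with length across 5868 genes was -0.516 for U1 minus T and -0.296 for U2 minus T. The T libraries showed the trend against the TE libraries as well, with a rho of 0.547 and medians of -0.90 for the shortest and 0.31 for the longest class. U1 minus TE and U2 minus TE had rho values of 0.059 and -0.096. In genes over 2000 bases their medians were -0.03 and -0.71, so that U2 was low in long genes against TE as well. A length correction, an offset for each library from its own trend with gene length, left 240 of the 664 calls described below in place, in the same direction. The named genes and the lists whose calls ended with it are given beside their values.

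**Figure D1:**
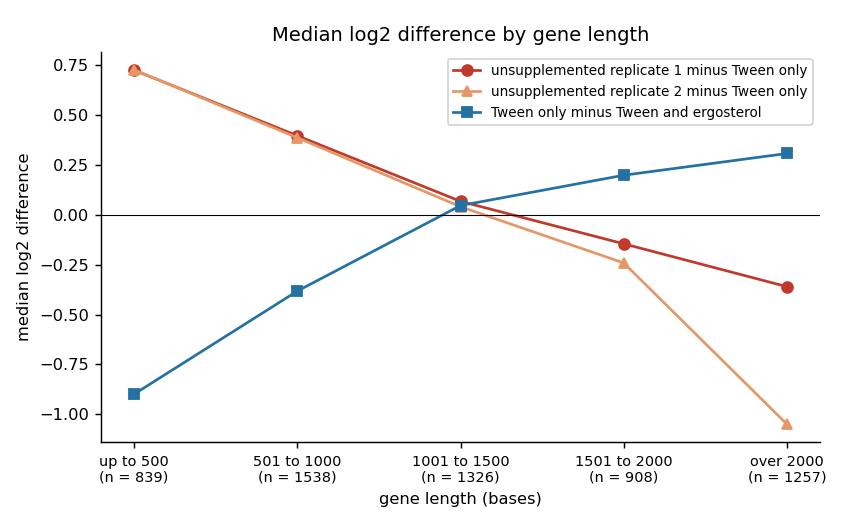
Median log2 difference of TMM-scaled CPM (vertical axis) in 5 classes of gene length in bases (horizontal axis), for U1 and U2 minus the mean of T and for T minus TE. In genes of up to 500 bases both unsupplemented replicates lie at 0.73 and T minus TE at -0.90; in genes over 2000 bases the order is turned round.

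Of the 5868 genes, 664 had an adjusted p under 0.05 in U against T (11.3%; edgeR quasi-likelihood test over all 10 S. cerevisiae libraries, Benjamini-Hochberg), 491 higher in U (8.37%) and 173 lower (2.95%). An unadjusted p under 0.05 was reached by 2203 genes, and 1850 had a fitted log2 fold change of at least 1 either way, 1299 of them positive. For all 664 called genes the U libraries lay on one side of both T libraries. That separation alone was common, with both U libraries above both T libraries in 1918 genes (32.7%) and below them in 1699 (29%). The median log2 fold change of all genes was 0.11.

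The count of called genes depended on the tool and on which libraries entered the fit. Limma voom, with weights for the spread of each group, called 51 genes, 47 of them shared in the same direction. HXT3/HXT1 (SCEN_D05930) and PAU16 were among these (adjusted p 7.27e-05 and 4.81e-05). OLE1, RIP1, QCR2, HAP4, CLN1 and HSP30, described below, were not (voom adjusted p 0.306, 0.109, 0.125, 0.109, 0.112 and 0.156). With the 4 libraries of the comparison alone, edgeR called 0 genes, although 578 had an unadjusted p under 0.05, and DESeq2 over all 10 libraries called 2042. Without T1 and without T2 the count was 2 each time. Without U1 it was 4308 and without U2 it was 2537, and each of these fits takes the lone library of its group to vary as the other groups do. Of the 664 genes, 639 were called in the same direction without U1 and 662 without U2. Calls higher and lower in U numbered 491 and 173 in the reported fit, 2096 and 2212 without U1, 1239 and 1298 without U2, and 163 and 125 with each library corrected for gene length. The 2 genes called without T1, and again without T2, were HXT3/HXT1 (SCEN_D05930) and SCEN_I02200.

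Replicate by replicate, U2 lay farther from T than U1 did. In U1, 591 genes were at least 1 log2 unit above the mean of the T libraries and 253 at least 1 below it. In U2 these numbers were 1689 and 1844. Both replicates were at least 1 above T in 371 genes (6.32% of those tested) and at least 1 below it in 138 (2.35%), while 76 genes were past 1 in opposite directions. In 2948 genes U2 alone was past 1, in 259 U1 alone, and 2076 genes were within 1 in both. Of the called genes, 439 were past 1 in both replicates in the same direction, 330 above T and 109 below it.

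**Figure D2:**
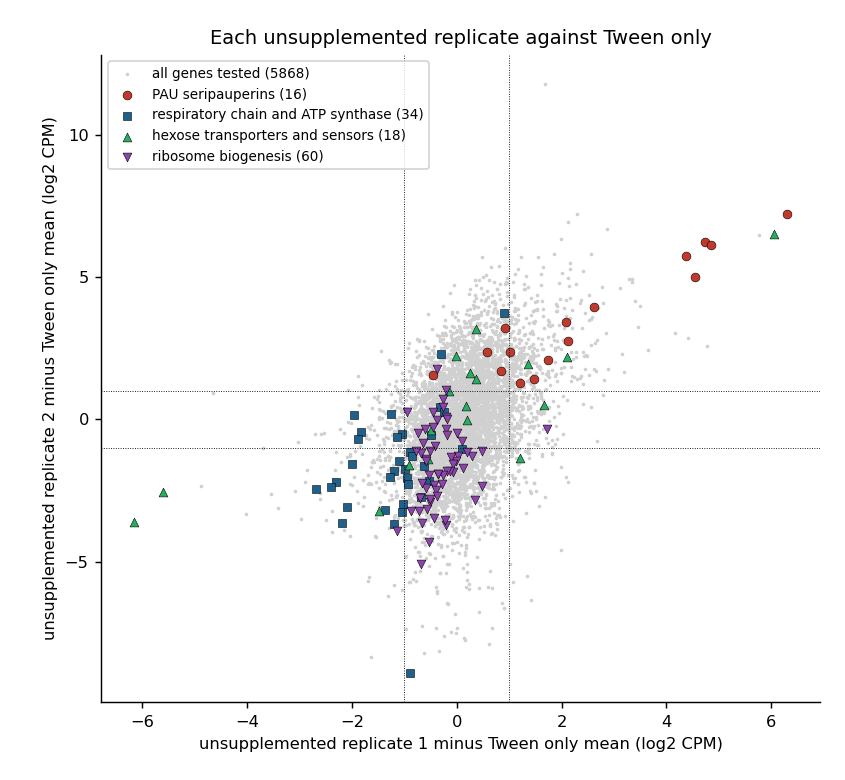
Log2 difference from the mean of the 2 Tween only libraries for each of 5868 genes, in unsupplemented replicate 1 (horizontal axis) and replicate 2 (vertical axis), with 4 gene lists marked; dotted lines stand at 1 and -1. The PAU genes and HXT3/HXT1 lie at the upper right, HXT7 and HXT6/HXT4 at the left below -1 in both replicates, and the cloud of all genes is wider along the axis of replicate 2.

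OLE1 and the genes of fatty acid supply come first, since Tween 80 is the component that differs by design. OLE1 (SCEN_G02160, chromosome 7, 416540 to 418072) encodes the only fatty acid desaturase of S. cerevisiae, and its transcription is known to be repressed by unsaturated fatty acids. It had 11292 and 9545 CPM in U1 and U2, against 1955 and 2063 CPM in T1 and T2, and 1876 and 2029 CPM in TE1 and TE2. The U libraries were close to each other and well above the T and TE libraries. The aerobic libraries, with 0 mg/L Tween 80, had 2979 and 3602 CPM. Whether Tween 80 accounts for the difference was not tested. The fitted ratio was 5.19, or 2.37 on the log2 scale (SE 0.49, adjusted p 0.0303), and the length correction gave 2.50. By limma voom, with weights for the spread of each group, OLE1 was not called (adjusted p 0.306). Both T and TE contained Tween 80, and T minus TE was 0.04 on the log2 scale (adjusted p 0.977).

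The activators of OLE1 did not follow it. SPT23, a membrane-bound transcription factor that is released by proteolysis to activate OLE1, had 42.3 and 37.8 CPM in U, against 81.3 and 84.6 CPM in T. The log2 difference came to -1.04 (SE 0.20, adjusted p 0.0238), and to -0.32 (adjusted p 0.372) with the length correction. MGA2, its paralog, had 475 CPM in U1 and 129 in U2, on opposite sides of the 226 and 228 CPM of T (log2 fold change 0.42, adjusted p 0.594).

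Genes of fatty acid synthesis and elongation had a median log2 fold change of 0.97 over 13 tested members, 0.46 in U1 and 1.07 in U2, beside 0.11 over all genes. Both U libraries lay above both T libraries in 11 of the 13, as in 32.7% of all genes, and 2 passed the test (15.4%), both higher in U, beside 8.37% of all genes. ELO1, the elongase of medium-length fatty acids, had 115 and 1311 CPM in U, against 38.0 and 37.6 CPM in T (log2 fold change 4.23, SE 0.96, adjusted p 0.0379), and its call ended with the length correction (3.97, adjusted p 0.0602). PHS1, the dehydratase of very long chain fatty acid synthesis, had 288 and 599 CPM in U, against 98.1 and 109.7 CPM in T (log2 fold change 2.09, SE 0.35, adjusted p 0.0199). The subunits of fatty acid synthase just missed the threshold. FAS1 had 1859 and 4196 CPM in U, against 867 and 973 CPM in T (log2 fold change 1.72, adjusted p 0.0523), and FAS2 had 2446 and 20909.8 CPM in U, against 1181 and 1317 CPM in T (3.22, adjusted p 0.054). ACC1, the acetyl-CoA carboxylase that starts the pathway, had 1083 and 1035 CPM in U, against 493 and 591 CPM in T, with U replicates close together (log2 fold change 0.97, adjusted p 0.0666). With the length correction ACC1 had a value of 1.92 and an adjusted p of 0.0387.

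Of 8 genes for uptake and activation of fatty acids, 1 passed as higher and 1 as lower, beside 8.37% and 2.95% of all genes. ACB1, the acyl-CoA binding protein, had 1198 and 3437 CPM in U, against 351 and 329 CPM in T (log2 fold change 2.77, SE 0.50, adjusted p 0.0224). It is 264 bases long, and the length correction ended its call (2.02, adjusted p 0.0651). FAA3, an acyl-CoA synthetase, fell to 107.7 and 52.0 CPM in U, against 398 and 398 CPM in T (log2 fold change -2.29, SE 0.36, adjusted p 0.0175). FAA1, the main synthetase for imported fatty acids, had 165 CPM in U1, below the 246 and 255 CPM of T, and 591 CPM in U2, above them (adjusted p 0.41). FAA4 had 846 and 1320 CPM in U, against 412 and 446 CPM in T (log2 fold change 1.33, adjusted p 0.0659).

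The PAU seripauperins, small mannoproteins of the cell surface that are induced without oxygen, had the highest median of the lists. Of 16 tested members 10 were higher in U (62.5%, beside 8.37% of all genes), and none of the others was called lower. The median log2 fold change was 2.49, with 1.92 in U1 and 2.997 in U2, and both U libraries lay above both T libraries in 15 of 16, beside 32.7% of all genes. The family consists of near-identical short genes and the counts leave out reads that map to several places, so single members are uncertain. Their median length was 366 bases. With the length correction 7 of 16 were called and the median was 1.87.

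Within the family the difference was graded. PAU16 (SCEN_K00130, chromosome 11, 8350 to 8721) had 693 and 1325 CPM in U, against 9.66 and 7.66 CPM in T, and 0.739 and 0.783 CPM in TE. With a log2 difference of 6.86 (SE 0.54, adjusted p 0.00316) it was the highest of the family. PAU10 had 746 and 1022 CPM in U, against 35.5 and 28.4 CPM in T, and 6.40 and 5.58 CPM in TE (log2 fold change 4.79, SE 0.33, adjusted p 0.0016). PAU11, PAU14/PAU1 and PAU4 had log2 fold changes of 5.67, 5.65 and 5.23, with adjusted p-values of 0.0074, 0.00371 and 0.009. These 5 genes were all under 70 CPM in each T library. PAU17 had 2242 and 5619 CPM in U, against 398 and 331 CPM in T (log2 fold change 3.43, adjusted p 0.0101). PAU3 and PAU2, which were already high in T, differed less. The T level is also the base of the ratio, so part of such a gradient is built in. PAU3 had 4022 and 4302 CPM in U, against 1897 and 1614 CPM in T, and 4.52 and 3.42 CPM in TE (log2 fold change 1.25, adjusted p 0.0608). PAU2 had 5543 and 14151 CPM in U, against 2826 and 2632 CPM in T (log2 fold change 1.85, adjusted p 0.0497), and 1.23 (adjusted p 0.16) with the length correction. PAU8 had 3671 and 18211 CPM in U, against 2003 and 1870 CPM in T (log2 fold change 2.50, adjusted p 0.0533), near the family median. The exception to the separation of groups was PAU24/PAU12 (SCEN_G05620), with 339 CPM in U1, below the 488 and 438 CPM of T, and 1355 CPM in U2. Its log2 fold change of 0.87 was the lowest of the family, although its T libraries lay below those of PAU2, PAU3 and PAU8. In both U and T all 16 members stood above TE, with medians of 8.84 for U minus TE and 6.09 for T minus TE on the log2 scale. The first of these shares its U libraries, and the second its T libraries, with the comparison of U and T.

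**Figure D3:**
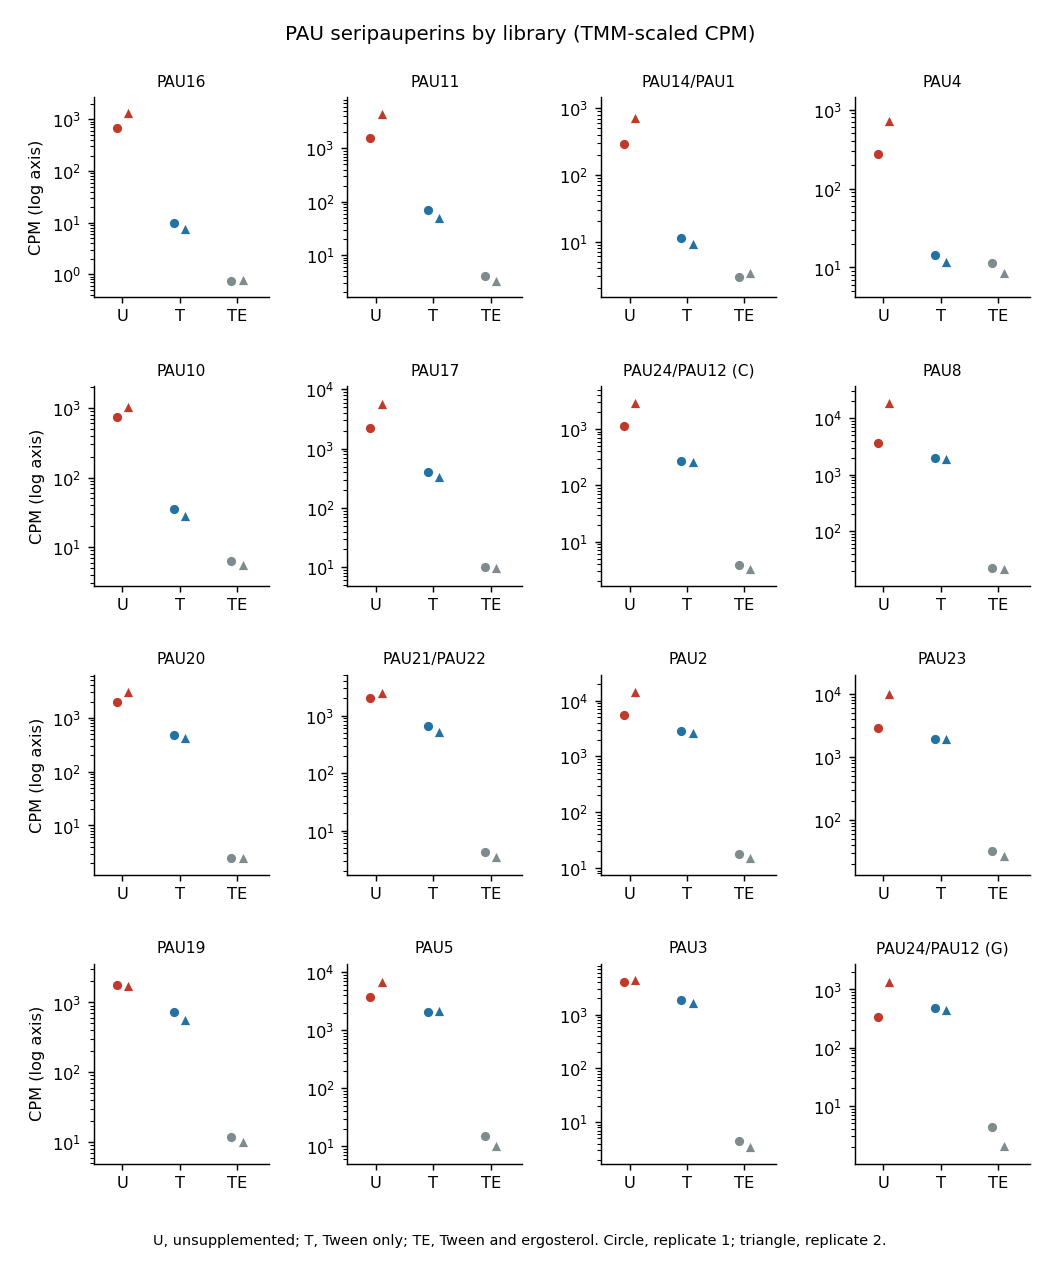
TMM-scaled CPM (log axis, own range in each panel) of the 16 PAU genes in U, T and TE, with a circle for replicate 1 and a triangle for replicate 2; a letter in parentheses is the chromosome letter of the gene ID where 2 genes share a name. U lies above T in 15 panels; PAU16, PAU11, PAU14/PAU1, PAU4 and PAU10 have T libraries under 70 CPM, and PAU3, PAU5 and PAU2 have much higher T libraries.

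The other anaerobic mannoproteins did not move with the PAU genes in both replicates. TIR1, an anaerobic wall mannoprotein, had 6182 CPM in U1 and 27546 CPM in U2, against 4993 and 5175 CPM in T (log2 fold change 1.73, adjusted p 0.109). TIR2 and TIR4 were below T in U1 and above it in U2. TIR4 had 5641 and 27201 CPM in U, against 7662 and 7454 CPM in T. DAN4 (SCEN_J03720) fell to 572 and 994 CPM in U, against 2321 and 2349 CPM in T, with 108 and 78.5 CPM in TE. The log2 difference came to -1.58 (SE 0.36, adjusted p 0.0386), and to -0.65 (adjusted p 0.383) with the length correction. Of the 8 genes of that list 3 are PAU genes shared with the list above, and they enter its median. The 1 gene called higher is among these 3. DAN4 was the 1 called lower (25% called, beside 11.3% of all genes). Of 22 genes of wall integrity and wall enzymes 3 were called (13.6%, beside 11.3% of all genes). PST1, a wall protein induced by wall damage, was higher in U (849 and 1478 CPM, against 416 and 409 CPM in T). CHS1, the repair chitin synthase, was lower (73.9 and 42.5 CPM in U, against 147 and 159 CPM in T), and so was MID2, a wall stress sensor, with a log2 fold change of -0.87. The length correction ended the calls of PST1 (1.498, adjusted p 0.0732) and of CHS1 (-0.78, adjusted p 0.0651, against -1.37 without it), a gene of 2715 bases.

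Genes of hexose transport shifted in both directions. S. cerevisiae has many glucose permeases. Those of low affinity, such as Hxt1 and Hxt3, are known to be made when glucose is plentiful, and those of high affinity, such as Hxt6 and Hxt7, when it is scarce. Of 18 tested transporters and sensors 4 were called higher and 4 lower (44.4%, beside 11.3% of all genes). The gene with the deposited name HXT3/HXT1 (SCEN_D05930, chromosome 4, 1142350 to 1144053) had 3738 and 5147 CPM in U, against 55.6 and 56.5 CPM in T, and 80.6 and 87.4 CPM in TE. The U replicates were close to each other, and the fitted log2 difference of 6.31 had an SE of 0.33 and an adjusted p of 0.000653. That is the lowest adjusted p of the 5868 genes.

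Its neighbours on chromosome 4 went the other way. HXT7 (SCEN_D05910, 1133609 to 1135321) fell to 82.9 and 482 CPM in U, against 5850 and 6004 CPM in T, and 5532 and 5742 CPM in TE (log2 fold change -4.40, SE 0.81, adjusted p 0.0234). HXT6/HXT4 (SCEN_D05920, 1139001 to 1140713) fell to 117 and 962 CPM in U, against 5602 and 5764 CPM in T (log2 fold change -3.40, SE 0.87, adjusted p 0.0484). In both genes U2 lay above U1 and both U libraries were far below T. HXT6 and HXT7 are near-identical, so their separate values are uncertain. A gene of the same deposited name on chromosome 8, HXT6/HXT4 (SCEN_H01560), was higher in U, with 974 and 1049 CPM, against 335 and 153 CPM in T, and 12.6 and 12.8 CPM in TE (log2 fold change 2.05, SE 0.39, adjusted p 0.0238). That name joins HXT6 and HXT4, so the entries on chromosomes 4 and 8 need not be the same transporter. HXT5, a transporter of slow growth, had 42.1 and 64.3 CPM in U, against 17.1 and 15.7 CPM in T (log2 fold change 1.68). HXT2 was not called, although its groups did not overlap, with 640.3 and 1326 CPM in U, against 603 and 409 CPM in T (adjusted p 0.118). The glucose signalling genes SNF3, the high-affinity sensor, and MTH1, a corepressor of HXT genes, were lower in U with log2 fold changes of -1.17 and -2.07 (adjusted p 0.0364 and 0.0413). After the length correction 5 of the 18 were called, and the calls of SNF3 (-0.62, adjusted p 0.0943), MTH1 (-2.11, adjusted p 0.0532) and HXT6/HXT4 (SCEN_D05920; -3.07, adjusted p 0.0922) ended.

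Several genes of sugar use, which form no list here, are given by their values. SUC2, invertase, had 268 and 1563 CPM in U, against 7748 and 7956 CPM in T, and 3042 and 2681 CPM in TE (log2 fold change -3.10, SE 0.75, adjusted p 0.043), and -2.56 (adjusted p 0.103) with the length correction. The maltase gene MAL32/MAL12 (SCEN_G05600) had 64.5 and 105 CPM in U, against 1001 and 1107 CPM in T, and 2616 and 2325 CPM in TE (log2 fold change -3.65, SE 0.38, adjusted p 0.00703). MAL11, the maltose permease gene beside it, had 43.8 and 64.3 CPM in U, against 360.0 and 387 CPM in T (log2 fold change -2.80, SE 0.32, adjusted p 0.0079). HXK1, a hexokinase that glucose is known to repress, had 665 and 1264 CPM in U, against 7239 and 8223 CPM in T (log2 fold change -3.0045, SE 0.48, adjusted p 0.0185). HXK2, its glucose-induced counterpart, had 649 and 1375 CPM in U, against 2200 and 2104 CPM in T, and was not called (log2 fold change -1.09, adjusted p 0.086). MIG2, a repressor made in glucose and named here after its values were seen, had 76.4 and 150.3 CPM in U, against 13.5 and 12.7 CPM in T (log2 fold change 3.09, SE 0.37, adjusted p 0.009). In each of these genes except HXK2 the ratio held in both U replicates at 2 log2 units or more.

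**Figure D4:**
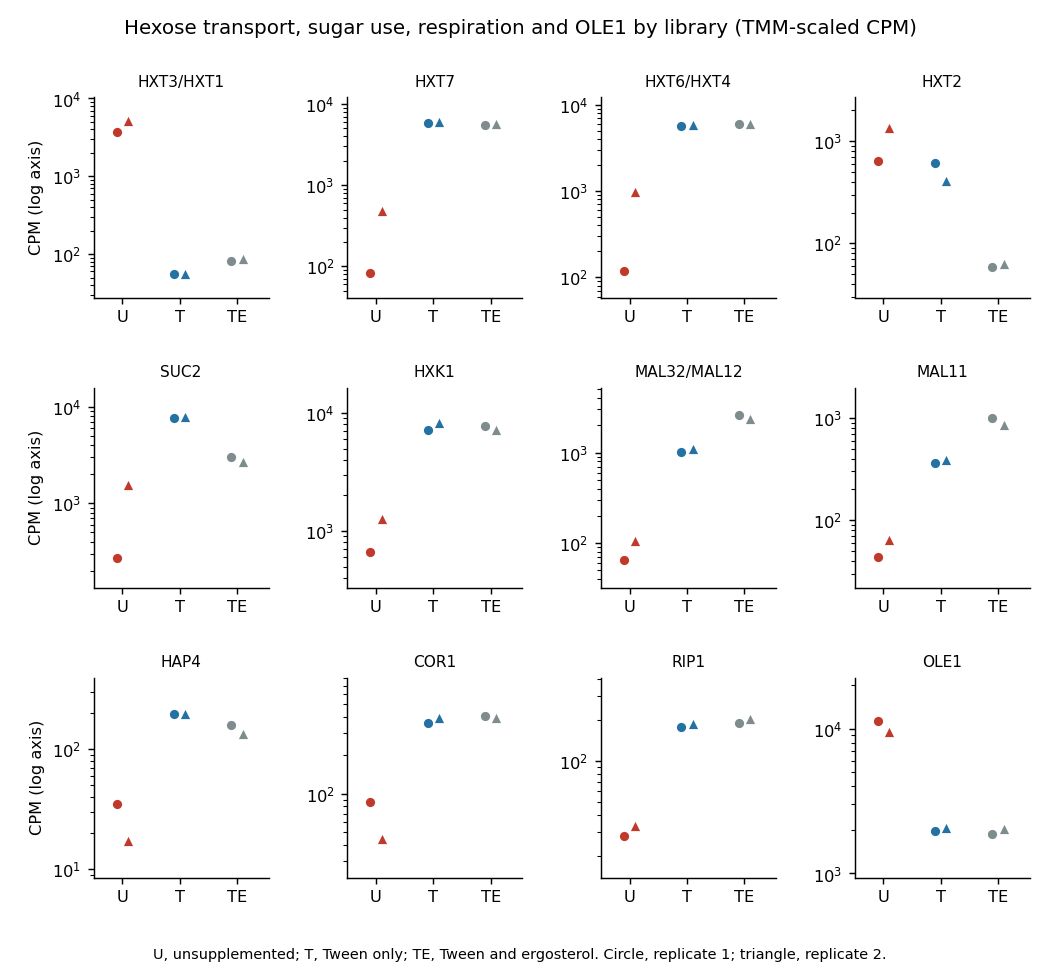
TMM-scaled CPM (log axis, own range in each panel) of 12 genes of hexose transport, sugar use, respiration and fatty acid desaturation in U, T and TE, with a circle for replicate 1 and a triangle for replicate 2. In HXT7, HXT6/HXT4 (SCEN_D05920), HXK1, HAP4, COR1 and RIP1 the T and TE libraries lie together above U; in HXT3/HXT1 (SCEN_D05930) and OLE1 they lie together below it.

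The respiratory chain and ATP synthase have no oxygen to use in any of these cultures. Of 34 tested members 9 were called (26.5%), all lower in U, beside 2.95% of all genes. The median log2 fold change was -1.27, with -1.04 in U1 and -1.70 in U2, and both U libraries were below both T libraries in 27 of the 34, beside 29% of all genes. RIP1 (SCEN_E00640), the Rieske iron-sulfur protein of complex III, had 27.95 and 33.1 CPM in U, against 177 and 186 CPM in T (log2 fold change -2.58, SE 0.31, adjusted p 0.009). QCR2, a core protein of the same complex, had 38.0 and 38.8 CPM in U, against 187 and 218 CPM in T (log2 fold change -2.40, SE 0.28, adjusted p 0.00839). In both genes the U replicates nearly coincided. COR1, the other core protein, had 86.7 and 44.4 CPM in U, against 357 and 389 CPM in T (log2 fold change -2.49, adjusted p 0.0159). ATP1, the alpha subunit of ATP synthase, had 134 and 48.2 CPM in U, against 592 and 622 CPM in T (log2 fold change -2.72, adjusted p 0.0204). ATP2 and COX4 had log2 fold changes of -1.76 and -2.26. HAP4, the activator subunit that limits transcription of respiratory genes, had 34.9 and 17.02 CPM in U, against 198 and 199 CPM in T (log2 fold change -2.87, SE 0.35, adjusted p 0.009). With the length correction 16 of the 34 were called, all lower, and the median was -1.88.

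Of 25 genes of the TCA and glyoxylate cycles and gluconeogenesis, 4 were lower and 1 higher (20%, beside 11.3% of all genes). CIT1, mitochondrial citrate synthase, had 263 and 137 CPM in U, against 718 and 751 CPM in T (log2 fold change -1.87, SE 0.40, adjusted p 0.0336). MDH1 and KGD1, mitochondrial malate dehydrogenase and a subunit of 2-oxoglutarate dehydrogenase, had log2 fold changes of -1.71 and -1.46. MLS1, malate synthase of the glyoxylate cycle, had 10.8 and 70.9 CPM in U, against 4.83 and 4.53 CPM in T (log2 fold change 2.99, adjusted p 0.0479). Of the 5, CIT1 alone was called with the length correction. Of 17 genes of peroxisomal beta-oxidation 2 were called (11.8%, close to the 11.3% of all genes). POX1, acyl-CoA oxidase, and ADR1, its activator, were both lower, with log2 fold changes of -1.51 and -1.53. These are long genes, of 2247 and 3972 bases, and with the length correction both calls ended, at -0.93 (adjusted p 0.214) and -0.67 (adjusted p 0.302). RPM2, the protein subunit of mitochondrial RNase P, was among the 12 genes most reduced, with 31.2 and 10.4 CPM in U, against 165 and 162 CPM in T.

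Sterol genes mostly did not pass, and the U replicates often disagreed. Of 14 genes from squalene to ergosterol, 1 was higher and 1 lower (14.3%, beside 11.3% of all genes). ERG28, a scaffold of sterol enzymes, had 2123 and 3603 CPM in U, against 1016 and 957 CPM in T (log2 fold change 1.54, SE 0.32, adjusted p 0.0312), and 0.97 (adjusted p 0.113) with the length correction. ERG5, the C-22 desaturase, had 348 and 303 CPM in U, against 967 and 962 CPM in T, and 269 and 240.5 CPM in TE (log2 fold change -1.57, SE 0.32, adjusted p 0.0303), and -1.39 (adjusted p 0.0532) with the length correction. It requires oxygen, as do ERG1, ERG3, ERG11 and ERG25, none of which was called. ERG11 had 4039 and 2555 CPM in U, against 6504 and 6147 CPM in T, and 1157 and 1039 CPM in TE (log2 fold change -0.94, adjusted p 0.118). ERG3 had 1826 CPM in U1, below the 3847 and 3876 CPM of T, and 6488 CPM in U2, above them. ERG2, the C-8 isomerase, had 1852 CPM in U1, near the 1563 and 1548 CPM of T, and 37479 CPM in U2. All 10 genes of the mevalonate pathway missed the threshold in edgeR, where 4 had an unadjusted p under 0.05, and DESeq2 called 5. Both U and T lacked ergosterol. The lists of mevalonate and late sterol genes had medians of 1.52 and 1.68 for U minus TE, and of 1.56 and 1.26 for T minus TE, on the log2 scale.

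Sterol import, which yeast performs only without oxygen or heme, depends on the ABC transporters Aus1 and Pdr11 and the transcription factors Upc2 and Ecm22. AUS1 (SCEN_O01830) had 1770 CPM in U1, below the 2284 and 2209 CPM of T, and 5055 CPM in U2, above them, with 679 and 501 CPM in TE (adjusted p 0.367). PDR11 had 191 and 442 CPM in U, against 318 and 342 CPM in T (adjusted p 0.911). UPC2 had 269 and 284 CPM in U, against 391 and 391 CPM in T, and 111 and 96.7 CPM in TE (log2 fold change -0.50, adjusted p 0.175). ECM22 had 166 and 226 CPM in U, against 89.4 and 88.7 CPM in T, with a call (log2 fold change 1.14, SE 0.24, adjusted p 0.0328). ARV1, an endoplasmic reticulum (ER) protein of sterol distribution, had 32.5 and 31.2 CPM in U, against 18.0 and 12.8 CPM in T (log2 fold change 1.05), and its call ended with the length correction (0.81, adjusted p 0.0895). ARE1, the sterol acyltransferase that is known to prevail without oxygen, had 437 and 6226 CPM in U, against 241 and 275 CPM in T (adjusted p 0.0565). The ranges of UPC2 in U and T did not overlap, while those of AUS1 and PDR11 did.

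INO1 and OPI3 had a far larger value in U2 than in U1. INO1, inositol phosphate synthase, had 158 and 1399 CPM in U, against 115 and 124 CPM in T (adjusted p 0.0721). OPI3, a methyltransferase of phosphatidylcholine synthesis, had 377 and 7456 CPM in U, against 232 and 263 CPM in T (adjusted p 0.059). Of 23 genes of sphingolipid synthesis 4 were higher and 1 lower (21.7%, beside 11.3% of all genes). All 4 higher calls ended with the length correction and the lower one remained. ISC1, the inositol sphingolipid phospholipase, had 218 and 1586 CPM in U, against 74.7 and 76.6 CPM in T (log2 fold change 3.57, SE 0.80, adjusted p 0.0364). LAC1 and LIP1, both of ceramide synthase, had 1.52 and 1.13, with LIP1 at 247 and 278 CPM in U, against 124 and 117 CPM in T. YPC1, a ceramidase, had -1.06. LIP1, of 453 bases, came to 0.55 (adjusted p 0.14) with the length correction.

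Of 25 genes of oxidative stress defence 7 were called (28%), all higher in U, beside 8.37% of all genes, and the median log2 fold change was 1.01 (0.38 in U1 and 1.31 in U2). TRX2, cytosolic thioredoxin, had 917 and 1850 CPM in U, against 154 and 153 CPM in T, and 325 and 439 CPM in TE (log2 fold change 3.17, SE 0.42, adjusted p 0.0101). AHP1, a thiol peroxidase, had 687 and 1696 CPM in U, against 101 and 97.1 CPM in T (log2 fold change 3.59, SE 0.55, adjusted p 0.0174). TSA1, the main peroxiredoxin, had 1689 and 11464 CPM in U, against 686 and 707 CPM in T (log2 fold change 3.24, adjusted p 0.0434; 2.79 and 0.0841 with the length correction). The list has short genes, with a median length of 648 bases, and 2 of its members were called with the length correction.

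Among heat shock genes, HSP26, a small heat shock protein, had 437 and 1233 CPM in U, against 41.7 and 43.9 CPM in T, and 89.2 and 102 CPM in TE (log2 fold change 4.28, SE 0.65, adjusted p 0.0169). HSP30, a plasma membrane protein induced by weak acids and ethanol, had 100.2 and 87.0 CPM in U, against 19.6 and 17.3 CPM in T (log2 fold change 2.35, SE 0.24, adjusted p 0.00611). HSP12, a membrane-protecting protein, had 221 and 75.6 CPM in U, against 9.91 and 10.5 CPM in T, with TE at 65.7 and 91.3 CPM (log2 fold change 3.88, adjusted p 0.0479). These 3 and HSP10 were the 4 members called of 26 (15.4%, beside 11.3% of all genes), and the list's median was 0.48. HSP10 and HSP12 are 321 and 330 bases long, and the length correction ended their calls, at 0.92 (adjusted p 0.164) and 3.17 (adjusted p 0.0943). Of 21 general stress genes 5 were higher and 1 lower (28.6%, beside 11.3% of all genes). The higher ones were led by TFS1, an inhibitor of carboxypeptidase Y (329 and 3328 CPM in U, against 68.2 and 78.6 CPM in T). HSP12, which is on both lists, came next, and then SPI1, a wall protein (76.5 and 330.0 CPM in U, against 14.9 and 19.1 CPM in T). With the length correction 0 of the 21 were called in edgeR, although the median was 1.12. All 17 genes of trehalose and glycogen missed the threshold, where 3 had an unadjusted p under 0.05 and DESeq2 called 1.

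In the ER list of 20 genes, 4 were called, all higher in U (20%, beside 8.37% of all genes). They were SCJ1, a chaperone cofactor, ERV2 and MPD1, of disulfide formation, and HRD1, a ubiquitin ligase of ER degradation. Their log2 fold changes were 1.27, 1.15, 1.07 and 0.83. HRD1 had 139 and 133 CPM in U, against 78.0 and 75.2 CPM in T. The length correction left 2 of the 20 called and ended the calls of ERV2 (0.68, adjusted p 0.173) and MPD1 (0.82, adjusted p 0.106). KAR2, the ER chaperone BiP, had 1806 and 2535 CPM in U, against 1575 and 1528 CPM in T, and 579.6 and 528 CPM in TE (log2 fold change 0.48, adjusted p 0.236). PDI1, the main disulfide isomerase, had 1705 and 8523 CPM in U, against 956 and 944 CPM in T (adjusted p 0.0552). HAC1, the transcription factor of the unfolded protein response, had 617 CPM in U1 and 20984.5 CPM in U2, against 310 and 339 CPM in T (adjusted p 0.0522). The counts do not separate its spliced from its unspliced form.

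Glycolysis and ethanol formation had a median log2 fold change of 1.39 over 22 genes, which came from U2: the median was -0.18 in U1 and 2.10 in U2, and -0.28 in the fit without U2. Of these genes HXK1 was called lower and PDC6, a minor pyruvate decarboxylase, higher (log2 fold change 1.56). These 2 calls made 9.09% of the list, beside 11.3% of all genes. PDC6 was not called with the length correction (1.82, adjusted p 0.0643). Glycerol formation had 2 of 8 called, both higher (25%, beside 8.37% of all genes). STL1, a glycerol importer, had 16.2 and 29.3 CPM in U, against 8.83 and 8.99 CPM in T. GPD1/GPD2 (SCEN_D02250), glycerol 3-phosphate dehydrogenase, had 244 and 364 CPM in U, against 137 and 150.0 CPM in T. Both calls ended with the length correction (adjusted p 0.0582 and 0.0667).

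The translation machinery differed by kind of gene. All 110 genes of cytosolic ribosomal proteins had positive log2 fold changes, with a median of 1.04 (0.73 in U1, 1.25 in U2), and both U libraries lay above both T libraries in 98 of them (32.7% of all genes), but 4 were called (3.64%, below the 11.3% of all genes). These are short genes, of 684 bases at the median. Against TE the same list had a median of -0.16 for U and -1.11 for T, and with the length correction the median of U minus T was 0.66 with 0 genes called in edgeR. The 60 genes of ribosome biogenesis had a median of -0.71, with -0.38 in U1 and -1.52 in U2, and both U libraries lay below both T libraries in 41 of them (68.3%, beside 29% of all genes). None was called in edgeR, where 3 had an unadjusted p under 0.05, and DESeq2 called 3. The 71 mitochondrial ribosomal protein genes had medians of 0.46 in U1 and -0.34 in U2, and the list's median of 0.25 turned to -0.28 with the length correction. Of the 71 genes 4 were called, all higher (5.63%, below the 8.37% of all genes), and with the length correction 0 were called in edgeR.

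**Figure D5:**
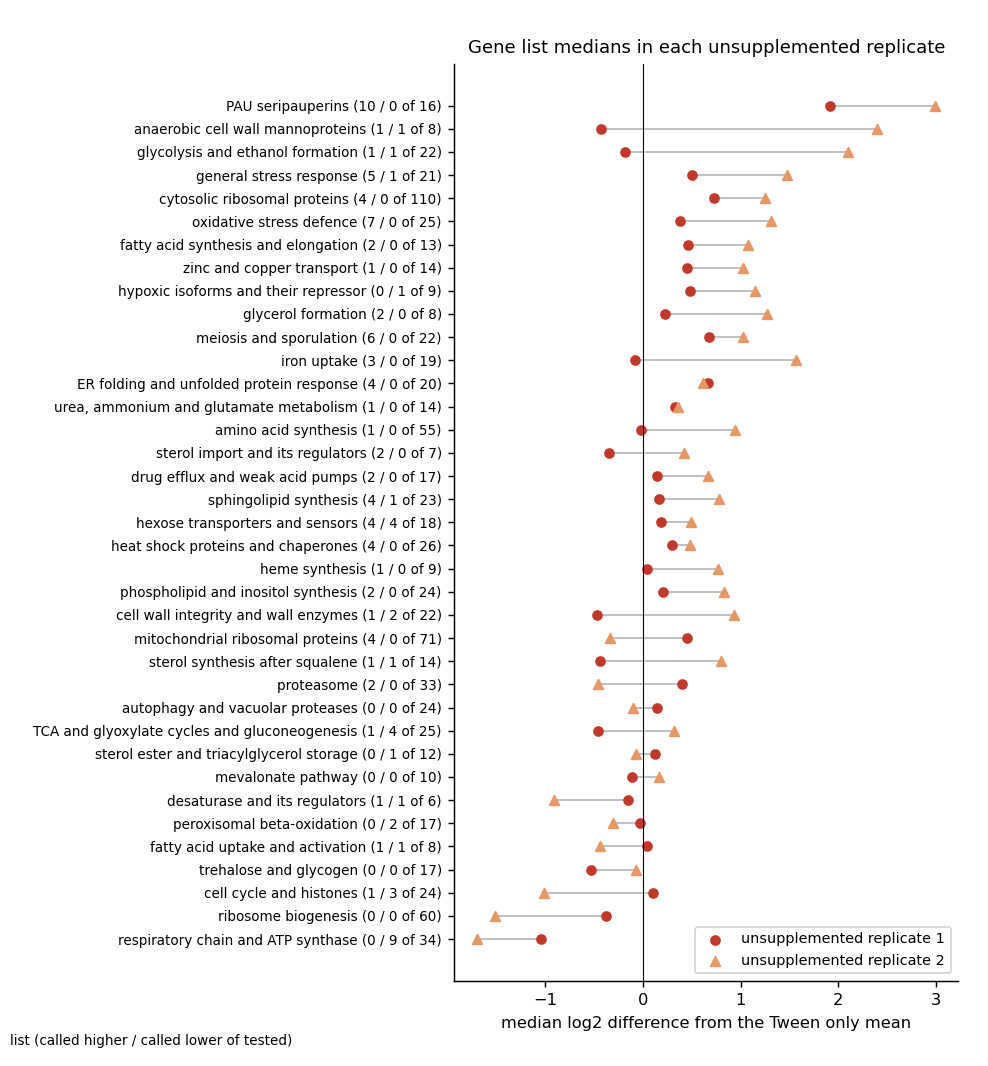
Median log2 difference from the mean of the T libraries (horizontal axis) for 37 gene lists, in unsupplemented replicate 1 (circles) and replicate 2 (triangles); the numbers give the genes called higher and lower of those tested. The PAU genes lie highest at 1.92 and 2.997 and the respiratory chain lowest at -1.04 and -1.70, while the mannoproteins, glycolysis and iron uptake are among those that have replicates on opposite sides of 0.

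The remaining lists held few calls (8.37% of all genes were higher and 2.95% lower). In the list of the desaturase and its regulators, OLE1 and SPT23 were the 2 called of 6, and OLE1 was also the 1 gene called of the 9 that check the anaerobic state. Of 12 genes of sterol ester and triacylglycerol storage, TGL5, a lipase, was lower, with 37.6 and 48.2 CPM in U, against 97.2 and 113.5 CPM in T. Of 9 hypoxic isoforms, ROX1, the repressor of hypoxic genes, was lower, with 15.3 and 10.4 CPM in U, against 29.9 and 33.6 CPM in T. Of 24 genes of phospholipid and inositol synthesis, EPT1 and SLC1, a phosphotransferase and an acyltransferase, were higher with log2 fold changes of 1.85 and 1.33. Of 9 genes of heme synthesis, HEM15, ferrochelatase, was higher, with 299.8 and 1422 CPM in U, against 114 and 128 CPM in T. Of 19 genes of iron uptake, FRE3, FRE4 and CCC2 were higher, and of 14 of zinc and copper transport, CTR3. DUR3, a urea permease, had 24.7 and 44.4 CPM in U, against 9.58 and 8.99 CPM in T, and was the 1 called of 14 genes of urea, ammonium and glutamate metabolism. Of 55 genes of amino acid synthesis 1 was called, ORT1, an ornithine carrier, and of 33 proteasome genes 2, PRE3 and PRE5, all higher. Of 17 genes of drug efflux and weak acid pumps, RTA1 and TPO2 were higher. No gene of autophagy and the vacuolar proteases was called of 24 in edgeR, where 9 had an unadjusted p under 0.05, and DESeq2 called 9. Under the length correction the called members numbered 1 in the desaturase, hypoxic, urea and drug efflux lists and 2 in iron uptake, and the calls in storage, phospholipid, heme, zinc and copper, amino acid and proteasome genes ended.

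Genes of meiosis and of the cell cycle also held calls. Of 22 genes of meiosis and sporulation 6 were higher in U (27.3%, beside 8.37% of all genes), and 5 with the length correction. IME2, a meiotic kinase, had 233 and 489 CPM in U, against 122 and 102 CPM in T, and 14.1 and 13.5 CPM in TE (log2 fold change 1.68, SE 0.36, adjusted p 0.0327). OSW2, a spore wall gene, had 76.8 and 66.2 CPM in U, against 17.4 and 19.7 CPM in T (log2 fold change 1.95, adjusted p 0.009). CLN1, a G1 cyclin, fell to 59.4 and 50.1 CPM in U, against 245 and 242 CPM in T (log2 fold change -2.14, SE 0.22, adjusted p 0.00676). CLN3 and RNR1, the upstream G1 cyclin and ribonucleotide reductase, had -0.95 and -0.97, and CLB5, an S phase cyclin, had 1.31. These were the 4 called of 24 genes of the cell cycle and histones (16.7%, beside 11.3% of all genes). The length correction ended the calls of CLN3 (-0.71, adjusted p 0.0668), RNR1 (-0.27, adjusted p 0.538), of 2667 bases, and CLB5 (1.29, adjusted p 0.055). SFG1, a transcription factor of the G1 phase and pseudohyphal growth, had 201 and 59.6 CPM in U, against 909.8 and 873 CPM in T (log2 fold change -2.75, SE 0.53, adjusted p 0.0258).

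Among the 12 highest called genes, 4 were PAU genes and 1 was HXT3/HXT1. SCEN_I02200 (chromosome 9, 428119 to 428487), which has no reference name, had 704 and 1176 CPM in U, against 15.3 and 10.7 CPM in T, and 2.13 and 2.05 CPM in TE (log2 fold change 6.17, SE 0.38, adjusted p 0.00106). RTA1, a membrane protein of lipid-translocating exporters, had 160.0 CPM in U1 and 2274 CPM in U2, against 24.2 and 19.4 CPM in T (log2 fold change 5.80, SE 1.11). SPC25, a kinetochore gene whose interval overlaps another gene, had 114 and 3483 CPM in U, against 21.8 and 24.5 CPM in T, and THI5/THI12, of thiamine synthesis, had 29.6 and 469 CPM in U, against 7.67 and 8.53 CPM in T. YJL027C, a gene of unknown role, had 1.101 CPM in U1 and 35.9 CPM in U2, against 0.167 and 0.0666 CPM in T. Its T values lie under the floor of 3 counts, which is 0.25 CPM in T1 and 0.2 CPM in T2. Its U values are 13 and 38 counts. SCEN_N00140 had 51.6 and 1048 CPM in U, against 12.7 and 12.8 CPM in T. These 5 were higher in U2 than in U1, and the length correction ended the calls of SPC25, THI5/THI12, YJL027C and SCEN_N00140, with adjusted p-values of 0.0532, 0.056, 0.0838 and 0.0532. The list also has a transfer RNA gene, SCEN_Ntrna9D, at 39.9 and 380.1 CPM in U, against 5.50 and 7.86 CPM in T (log2 fold change 4.94, and 3.44 with an adjusted p of 0.0753 under the length correction). Transfer RNA genes as a whole took 369 and 374 CPM of the library total in U, against 89.9 and 91.9 in T, and 225 and 252 in TE. These are 71 bases long in the case of SCEN_Ntrna9D, at the short end of the length trend, and are not polyadenylated. Among the 12 lowest, SCEN_B04110 and SCEN_B04120, neighbours on chromosome 2 without reference names, had 1.44 and 0.945 CPM and 1.52 and 1.89 CPM in U, against 10.7 and 14.7 CPM and 17.3 and 18.4 CPM in T. The U2 values of this pair are 1 and 2 counts.

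A further test asked which genes differed by more than 1 log2 unit in either direction. By glmTreat 35 genes did, 24 higher and 11 lower. Beside the PAU genes, HXT3/HXT1, HSP30, TRX2 and MIG2 on the higher side, and MAL32/MAL12 (SCEN_G05600), MAL11, CLN1, HAP4, QCR2 and RIP1 on the lower, they included 4 genes chosen after their values were seen. FHN1, a membrane protein of eisosomes, had 1938 and 2704 CPM in U, against 194 and 151 CPM in T, and 67.9 and 64.9 CPM in TE (log2 fold change 3.75, SE 0.32, adjusted p 0.00371). SNZ1, of vitamin B6 synthesis, had 171 and 545 CPM in U, against 16.1 and 18.9 CPM in T (log2 fold change 4.35, SE 0.53, adjusted p 0.009). YGL039W, an aldehyde reductase, had 841 and 815 CPM in U, against 164 and 153 CPM in T (log2 fold change 2.38, SE 0.21, adjusted p 0.00384). SUL1, a sulfate permease, fell to 55.3 and 66.2 CPM in U, against 277 and 293 CPM in T (log2 fold change -2.24, SE 0.25, adjusted p 0.0074). In these 4 genes the U replicates were closer to each other than to either T library.

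Where the U replicates disagreed most, U2 mostly held the extreme value. The 8 genes most in excess in U2, among those with at least 50 CPM in 1 U library, were SCEN_L02180, SCEN_I01990, ILV6, HAC1, SPC25, YHR213W, YIL012W and SHR5. SCEN_L02180 had 477 CPM in U1 and 532759 CPM in U2, against 117 and 191 CPM in T. ILV6, the regulatory subunit of acetolactate synthase, had 258 CPM in U1 and 9644 CPM in U2, against 175 and 194 CPM in T. SHR5, of protein palmitoylation, had 58.1 and 1414 CPM in U, against 30.2 and 36.2 CPM in T. In these 3 genes U1 lay far closer to T than to U2. SCEN_I01990 went the other way, with 13.7 CPM in U1 and 663 CPM in U2, against 350 and 353 CPM in T. The 8 genes most in excess in U1 were BLI1, GIM4, ERJ5, TLG2, NGG1, RPA34, EFG1 and VTA1. BLI1 had 779 counts in U1 and 0 in U2, where 3 counts correspond to 2.84 CPM. Each of the other 7 had 1 count in U2, and between 894 and 1271 counts in U1. TLG2, a SNARE of the endosome, had 90.8 CPM in U1 and 0.945 CPM in U2, against 68.3 and 67.6 CPM in T, and NGG1, of the SAGA complex, had 86.1 and 0.945 CPM in U, against 101.8 and 94.4 CPM in T. In both genes U1 was at the level of T.

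Against TE, U differed by 509 called genes (8.67%), 358 higher (6.1%) and 151 lower (2.57%), and T against TE by 296 (5.04%), 101 higher (1.72%) and 195 lower (3.32%). These comparisons share the U and T libraries with the main one and are given by their values alone. For OLE1 the log2 fold changes were 2.42 for U minus TE (adjusted p 0.0281) and 0.04 for T minus TE. For HXT7 they were -4.33 (adjusted p 0.0213) and 0.07, for HXK1 -2.96 (adjusted p 0.0125) and 0.04, and for RIP1 -2.70 (adjusted p 0.00394) and -0.12. T and TE were close in these genes and U was not. The respiratory list as a whole differed from RIP1, with medians of -2.48 for U minus TE and -1.08 for T minus TE. Of its 34 genes 26 were called lower in U against TE and 4 lower in T against TE. Its median length was 454.5 bases, and T minus TE had a median of -0.90 over all genes of up to 500 bases. For AUS1 the log2 fold changes were 2.53 (adjusted p 0.0251) for U minus TE and 1.93 (adjusted p 0.0668) for T minus TE, and for UPC2 they were 1.41 (adjusted p 0.0181) and 1.91 (adjusted p 0.0114). In these sterol genes both groups without ergosterol stood above TE. HSP12 and TIP1, a wall mannoprotein chosen after its values were seen, had T as the low group: TIP1 had 1091 and 7865 CPM in U, against 227 and 277 CPM in T, and 1698 and 1756 CPM in TE. Against T the call of TIP1 ended with the length correction (3.73, adjusted p 0.0582).

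The authors' deposited table of this comparison holds 5868 genes, of which 1735 have an adjusted p under 0.05 there, 1262 higher and 473 lower in U. All 664 genes called here are among them, and the log2 fold changes of that table differ from those of the counts by a median of 0.0124.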

How the data were processed

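RNA-seq of S. cerevisiae chemostat cultures was analysed from the raw counts of read pairs per gene that the authors deposited. Per the file headers, featureCounts counted unstranded pairs to genes of a CEN.PK113-7D annotation and left out pairs that mapped to several places or overlapped several genes. The submitters' processing notes name Bowtie 1.2.1.1, SAMtools 1.3.1, featureCounts 1.6.0 and edgeR 3.28.1. The authors' deposited comparison table gives log2 fold changes and p-values, and its S288C tags gave gene names for 5422 genes (RefSeq); 155 genes overlap another.

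From the counts, edgeR 4.0.16 (R 4.3.3) filtered low genes (filterByExpr), scaled libraries by TMM and fitted group means over all 10 S. cerevisiae libraries by quasi-likelihood, with 5 residual degrees of freedom and Benjamini-Hochberg adjustment over 5868 genes. A gene with an adjusted p under 0.05 was called. Single-library differences use log2 CPM with a prior count of 2. Library totals ranged from 2849618 to 13112466, and 3 counts are taken as the floor, for counting error only. The test was also run on simulated data with the same spread in all groups. That run cannot show how the test performs with the wider spread of U.

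Members and lists were chosen with earlier results of these data known. Genes are named as the 12 highest and 12 lowest called ones with at least 10 CPM in 1 group and groups that do not overlap, as members of a list, and as the 8 genes each way that differed most between U1 and U2. FHN1, SNZ1, YGL039W, SUL1, MIG2 and TIP1 were chosen after their values were seen. Alternatives used RLE and upper quartile scaling, other filters, DESeq2 1.42.0, limma 3.58.1 voom, glmTreat, thinning, fewer libraries and a length correction, an offset per library from its trend with gene length.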

Additional observations from a re-analysis of the deposited data

How the results depend on the processing

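The 664 calls of U against T numbered 419 with upper quartile scaling, 437 after thinning to the lowest total, 2042 with DESeq2, 51 with voom, 35 with glmTreat and 0 with the 4 libraries alone, where 578 genes had an unadjusted p under 0.05. Leaving out 1 library in turn gave 2 to 4308 calls: 2 without T1 or T2, 2537 without U2, 4308 without U1, 66 and 57 without TE1 or TE2, 58 without either aerobic library and 275 without either oxygen-limited one. The length correction, chosen after seeing the data, gave 288, of which 240 were shared in the same direction; with it 213 genes were at least 1 above T in both U replicates and 48 were past 1 in opposite directions. Of all calls 73.9% were higher in U, 64.7% with upper quartile scaling, 84.3% with voom, 95.2% with the block, 56.6% with the length correction, and 48.7% and 48.8% without U1 or U2. Upper quartile scaling moved the median of all genes to -0.108. Genes past 1 numbered 1850, and 852 to 3579 with 1 library left out.

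The titles of U1 and T1 hold the letter L and those of U2 and T2 the letter R, and no label says that the letters pair cultures. The titles of TE1 and TE2 hold L and R as well, and differ from those of U1 and U2 only in the last digit. The comparison of U with TE was fitted without pairing. Across genes the L minus R differences of U and T had a Pearson r of 0.208 over 2 pairs. With the 4 libraries alone, the replicate block gave 21 calls. In it ERG3 had a log2 fold change of -0.266.

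Directions turned in 11 of the named genes that were checked. Genes named only for their difference between U1 and U2 were left out of this check. Some of these, such as GIM4 and EFG1, lay above T in U1 and below it in U2. Without U1 and without U2 the log2 fold changes were 2.789 and -0.808 for TIR2, 1.84 and -0.516 for TIR4, 1.542 and -0.543 for PAU24/PAU12 (SCEN_G05620), 1.163 and -0.438 for AUS1, 1.23 and -0.701 for FAA1, 0.741 and -1.175 for ERG3, -0.828 and 0.972 for MGA2, 0.412 and -0.885 for PDR11, and 0.164 and -2.079 for CYC1. With the length correction they were -0.125 for COX5B, -0.059 for ERG3, 0.965 for PDR11 and 0.207 for UPC2, and with upper quartile scaling -0.255 for ERG3. The cause was not tested. Depth limits U2 most, where 194 tested genes had under 3 counts.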
